A study of Mus musculus with 4 samples.

Results

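The genes examined were 10 members of the Bcl2 family, taken by their symbols from the 31053 genes counted in every library. They were the anti-death genes Mcl1, Bcl2a1a, Bcl2a1b, Bcl2a1d, Bcl2 and Bcl2l1 and the pro-death genes Bcl2l11, Bax, Bid and Pmaip1. All 10 were detected, from 2019 UMIs (unique molecular identifiers, each counting 1 captured RNA molecule) for Bcl2 to 327064 UMIs for Mcl1 over all cells that passed the filter. Live CD45+ leukocytes, negative for propidium iodide, had been sorted from 3 mm excisional skin wounds of C57BL6/J mice and profiled in droplets with a 3′ kit. The 4 libraries came from Angptl4+/+ wounds (WT) taken 1 or 5 days after wounding (dpw) and from Angptl4-/- wounds (KO) at 1 and 5 dpw. Angptl4 is a secreted protein that regulates lipid uptake and binds the matrix, and the knockout lacked it in the whole body. According to the study's methods the animals were young adult males, the wild-type mice were purchased and the knockout line came from a mutant mouse repository, so that line and genotype cannot be told apart here. The number of mice behind each library was not given.

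Each condition had 1 library and no replicate, so differences between conditions were not tested and no p-value is given. Of 20069 barcodes, 19827 passed the filter, from 4738 to 5346 in a library, with 26981596 to 32962595 deposited UMIs per library and medians of 3735.5 to 4975.5 UMIs per cell. Only 50 barcodes occurred in a pair of libraries. Angptl4 had 47 UMIs at 1 dpw and 78 at 5 dpw in WT libraries and 0 in both KO libraries, where a count of 0 allows up to 3 UMIs per library. Clusters were built without the 10 genes and without the related genes listed later, and were named from marker genes. The names were neutrophil-like and dendritic cell-like, B cell-like, macrophage-like and monocyte-like, with NK cell/T cell-like for lymphocytes of the other kinds. In the order WT at 1 dpw, WT at 5 dpw, KO at 1 dpw and KO at 5 dpw, neutrophil-like cells numbered 3890, 2705, 3700 and 3506, and macrophage-like cells 1150, 1545, 844 and 646. Levels are in CPM: all UMIs of a gene within a class were added up, then scaled to 1000000 UMIs from the same cells. Intervals are exact 95% intervals and cover counting error only, not the variation between mice.

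Proteins of the Bcl2 family decide whether the outer membrane of mitochondria stays intact. Bax opens pores in that membrane, the anti-death members hold Bax and its activators in check, and the small BH3-only proteins, here Bim (Bcl2l11), Bid and Noxa (Pmaip1), either activate Bax or occupy the anti-death members. Short-lived neutrophils are known to depend on Mcl1, a protein with rapid turnover, and on A1, which mice make from several near-identical Bcl2a1 genes. Lymphocytes lean on Bcl2 and dendritic cells on A1 and Bcl2l1.

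Positions are on GRCm38, the build of the authors' alignment (mm10). Mcl1 lies at chr3:95658788-95663176, Bcl2 at chr1:106538178-106714274, Bcl2l1 at chr2:152780668-152831728, Bcl2l11 at chr2:128126038-128162547, Bax at chr7:45461697-45466898 and Bid at chr6:120891930-120916853. The Bcl2a1 genes sit together on chromosome 9, Bcl2a1d at chr9:88723285-88731914 on the minus strand, Bcl2a1a at chr9:88956900-88962419 and Bcl2a1b at chr9:89199209-89207827 on the plus strand. Because the results turn on these paralogs, their promoters are shown, each from 250 bases before to 50 bases after the RefSeq start (GRCm38.p6), 5′ to 3′. Capitals mark bases that differ from Bcl2a1a in the aligned overlap, and a gap is not marked.
Bcl2a1a (chr9:88956670-88956969, plus strand): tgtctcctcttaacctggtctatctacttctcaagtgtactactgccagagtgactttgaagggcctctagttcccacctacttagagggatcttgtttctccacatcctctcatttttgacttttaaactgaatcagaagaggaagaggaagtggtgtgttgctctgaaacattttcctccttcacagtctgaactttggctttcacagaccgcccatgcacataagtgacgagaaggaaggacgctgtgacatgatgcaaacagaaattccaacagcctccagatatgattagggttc
Bcl2a1b (chr9:89199023-89199322, plus strand): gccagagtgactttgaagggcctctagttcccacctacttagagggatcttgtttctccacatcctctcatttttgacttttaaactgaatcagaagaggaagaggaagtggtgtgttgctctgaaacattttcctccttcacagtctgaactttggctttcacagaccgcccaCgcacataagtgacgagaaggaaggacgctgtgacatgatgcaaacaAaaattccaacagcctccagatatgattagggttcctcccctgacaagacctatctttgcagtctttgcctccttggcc
Bcl2a1d (chr9:88731801-88732100, minus strand): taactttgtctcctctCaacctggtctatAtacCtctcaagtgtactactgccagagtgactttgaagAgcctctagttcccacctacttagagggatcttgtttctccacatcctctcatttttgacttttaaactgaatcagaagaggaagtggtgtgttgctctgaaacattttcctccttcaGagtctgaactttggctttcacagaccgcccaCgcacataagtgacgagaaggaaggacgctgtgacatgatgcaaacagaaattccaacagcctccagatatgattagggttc

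The promoters were 99.2% identical between Bcl2a1a and Bcl2a1b over a shared stretch of 256 columns, and 96.0% identical between Bcl2a1a and Bcl2a1d. The latter had 288 of 300 columns the same, with 6 differing bases and a gap in Bcl2a1d counted as differences. The transcripts were 98.2% identical between Bcl2a1a and Bcl2a1b, 98.8% between Bcl2a1a and Bcl2a1d and 99.1% between Bcl2a1b and Bcl2a1d over their overlaps. Of the stretches of 90 bases in the last 500 bases of the transcript, where a 3′ kit reads, 39.7% for Bcl2a1a, 66.2% for Bcl2a1b and 65.2% for Bcl2a1d also occurred in another gene. A read from such a stretch cannot be assigned to 1 paralog, so the levels of single paralogs are uncertain and their sum is given beside them. None of the 3 windows held the NF-kappaB consensus on either strand, which 8.46% of 32851 RefSeq promoters of this length held. Bcl2a1b also shares exons with Gm29094, which had 8 UMIs in all cells, and Bax with Gm45808, which had 0. Bid overlaps exons of Bcl2l13 on the opposite strand, and Bcl2 those of D630008O14Rik. Whether counting used the strand was not given in the sources used here.

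The survival genes differed in the class where each was highest as CPM. Mcl1, whose protein turns over rapidly, was highest in neutrophil-like cells, with 4121 CPM (WT) and 4104 CPM (KO) at 1 dpw and 4342 CPM (WT) and 4253 CPM (KO) at 5 dpw. It ranked 32 among all genes by total UMIs. Macrophage-like cells had 2301, 1278, 2182 and 1316 CPM of Mcl1 in the order WT at 1 dpw, WT at 5 dpw, KO at 1 dpw and KO at 5 dpw, an order used for all series of 4 values from here on. As CPM, the neutrophil-like level exceeded the macrophage-like level in all 4 libraries, with log2 ratios of 0.84, 1.76, 0.91 and 1.69. Per cell the order was not the same in every library. Neutrophil-like cells averaged 20.9, 13.9, 20.3 and 14.9 Mcl1 UMIs, macrophage-like cells 17.9, 10.8, 15.0 and 15.7 and monocyte-like cells 21.1, 11.9, 20.2 and 12.9. Neutrophil-like cells held fewer UMIs in all, on average 3209 to 5062 per cell against 6866 to 11899 in macrophage-like cells. Monocyte-like cells spanned 1226 to 1436 CPM, dendritic cell-like cells 814 to 1208 CPM and NK cell/T cell-like cells 370.5 to 1072 CPM. In the order neutrophil, macrophage, monocyte, dendritic cell and NK cell/T cell, the ranges of macrophage- and monocyte-like cells overlapped, as did those of dendritic cell-like and NK cell/T cell-like cells.

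A1 marked dendritic cell-like cells. The sum of Bcl2a1a, Bcl2a1b and Bcl2a1d stood at 2174, 2206, 2111 and 1974 CPM there, against 316, 413, 272 and 442 CPM in macrophage-like and 218, 406, 257 and 385 CPM in neutrophil-like cells. The log2 ratio of dendritic cell-like to macrophage-like cells was 2.78 (2.71 to 2.85), 2.42 (2.37 to 2.47), 2.95 (2.86 to 3.04) and 2.16 (2.10 to 2.22). All 4 dendritic cell-like values lay above every value of the other classes, and the ranges of neutrophil-like, macrophage-like and NK cell/T cell-like cells (278 to 388 CPM) overlapped. Among classes with at least 50 cells in each library, monocyte-like cells had the lowest sums at 1 dpw, 53.6 CPM (WT) and 59.6 CPM (KO). The dendritic cell-like cluster was led by Fscn1, Ccl22 and Ccr7, genes of mature dendritic cells, but was a mixture. Genes said to lead a cluster were picked from the 10 with the highest fold over all other cells. At resolution 1.0 dendritic cell-like cells divided into 439 cells led by Siglech, Cd209d and Cd209a and 271 led by Fscn1. The levels given are those of the mixture.

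Bcl2, the founding anti-death gene, was highest in lymphocytes. NK cell/T cell-like cells had 453, 214, 273 and 154 CPM, with only 36 such cells in each library at 1 dpw. B cell-like cells, 55 in all, had 133 CPM (89.5 to 189) pooled over the libraries. Neutrophil-like cells had 3.1 to 7.0 CPM and macrophage-like cells 3.02 to 9.76 CPM, and these ranges overlapped. The log2 ratio of NK cell/T cell-like to neutrophil-like cells ran from 4.46 to 7.19. Bcl2l1, the gene of Bcl-xL, went the other way, with 113 to 169 CPM in neutrophil-like, 34.3 to 72.0 CPM in macrophage-like, 34.2 to 53.9 CPM in NK cell/T cell-like, 13.9 to 29.8 CPM in dendritic cell-like and 9.52 to 20.04 CPM in monocyte-like cells. The neutrophil-like range overlapped no other, macrophage-like and NK cell/T cell-like ranges overlapped each other, and so did those of dendritic cell- and monocyte-like cells.

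Among the pro-death genes, Bcl2l11 was, like Mcl1, highest in neutrophil-like cells as CPM. The gene of Bim had 585, 366, 523 and 434 CPM in neutrophil-like and 255, 180, 249 and 146 CPM in macrophage-like cells, a log2 ratio of 1.20, 1.02, 1.07 and 1.57. Per cell it averaged 2.96, 1.17, 2.59 and 1.52 UMIs in neutrophil-like and 1.99, 1.51, 1.71 and 1.74 in macrophage-like cells. At 5 dpw the order per cell was thus the reverse of that by CPM. Dendritic cell-like cells had 54.6 to 105 CPM, monocyte-like cells 75.5 to 133 CPM and NK cell/T cell-like cells 68.5 to 267 CPM, ranges that overlapped one another. The NK cell/T cell-like range also overlapped the macrophage-like range. In KO at 1 dpw the log2 ratio of these classes was 0.10 (-0.25 to 0.43). Bax was not highest in neutrophil-like cells. Neutrophil-like cells had 43.2, 95.9, 42.7 and 99.6 CPM of it. The other classes with at least 50 cells in each library had 144 to 234 CPM. NK cell/T cell-like cells had 83.1 to 163 CPM, a range that overlapped the neutrophil-like range. Within each library they lay above neutrophil-like cells, with log2 ratios of 1.70, 0.48, 0.96 and 0.71. The pore-former was lower in neutrophil-like than in macrophage-like cells in every library, with log2 ratios of -2.14, -0.84, -2.08 and -1.23. Pmaip1, the gene of Noxa, which occupies Mcl1 and A1, was highest in dendritic cell-like cells, at 183, 169.6, 151 and 252 CPM. It ranged from 20.8 to 87.9 CPM in neutrophil-like cells, 40.6 to 78.6 CPM in monocyte-like cells, 33.2 to 52.9 CPM in macrophage-like cells and 19.3 to 39.6 CPM in NK cell/T cell-like cells, ranges that overlapped except between the monocyte-like and NK cell/T cell-like classes. Bid, which links death receptors to mitochondria, was low throughout, from 31.7 to 43.2 CPM in monocyte-like cells down to 9.0 to 11.4 CPM in dendritic cell-like cells. Macrophage-like (16.5 to 20.7 CPM), neutrophil-like (16.4 to 33.6 CPM) and NK cell/T cell-like ranges (17.3 to 25.2 CPM) overlapped one another, and the neutrophil-like range also overlapped the monocyte-like.

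**Figure D1:**
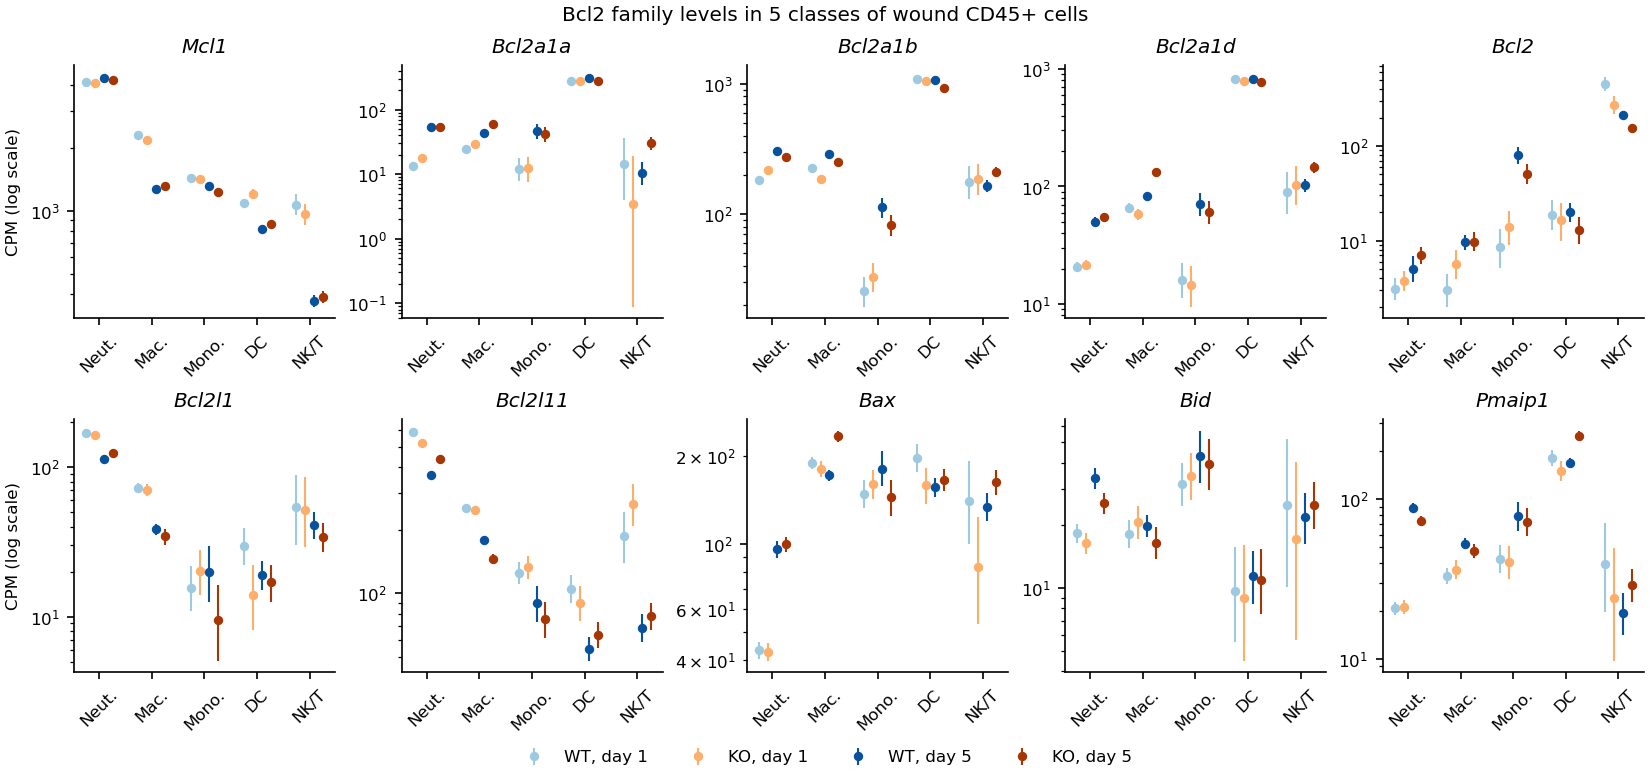
Level of each of the 10 genes (CPM, log axis, its range set per gene) in neutrophil-like (Neut.), macrophage-like (Mac.), monocyte-like (Mono.) and dendritic cell-like cells (DC) and the NK cell/T cell-like class (NK/T) of the 4 libraries; bars are exact 95% intervals for counting error. As CPM, Mcl1, Bcl2l1 and Bcl2l11 are highest in neutrophil-like cells, the Bcl2a1 genes and Pmaip1 in dendritic cell-like cells and Bcl2 in NK cell/T cell-like cells.

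Genes that mark other cells served as a guide to RNA from those cells. Whether a class made some of this RNA itself was not tested. In macrophage-like cells the neutrophil genes S100a8, S100a9, Cxcr2 and Retnlg stood at 4.45% to 6.25% of their neutrophil-like level at 1 dpw and at 1.46% to 2.10% at 5 dpw. Over both days Bcl2l11 stood at 33.6% to 49.2% and Mcl1 at 29.4% to 55.8%. In neutrophil-like cells C1qa, C1qb, Apoe, Arg1 and Fn1 stood at 0.109% to 2.07% of their macrophage-like level and Bax at 22.8% to 55.7%. In other classes the margin was smaller. In monocyte-like cells of KO wounds at 5 dpw Bcl2l1, with 13 UMIs, stood at 7.67% of its neutrophil-like level and these neutrophil genes at 4.12% to 8.59%. This Bcl2l1 level thus cannot be told apart from theirs. In WT at 1 and 5 dpw and KO at 1 dpw it stood at 9.24%, 17.6% and 12.2%, above each of these genes. In NK cell/T cell-like cells at 1 dpw the neutrophil genes stood at up to 15.3% and Mcl1 at 26.0% (WT) and 23.5% (KO).

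The split of A1 UMIs among its paralogs differed between the classes. Bcl2a1b gave 84.3%, 74.3%, 84.6% and 71.8% of the Bcl2a1 UMIs of neutrophil-like cells. In dendritic cell-like cells it gave 49.7%, 48.7%, 49.4% and 47.0%, and Bcl2a1d gave 37.3%, 37.4%, 37.3% and 39.1%. The neutrophil-like share of Bcl2a1b was lower at 5 dpw in both genotypes, with intervals of 83.2% to 85.4% against 72.8% to 75.8% in WT and of 83.5% to 85.6% against 70.5% to 73.0% in KO. Macrophage-like cells had 71.3%, 69.4%, 68.0% and 56.8% from Bcl2a1b, and the lowest of these, KO at 5 dpw, went with 29.8% (28.3% to 31.4%) from Bcl2a1d, against 20.1% (19.0% to 21.2%) in WT at 5 dpw. Bcl2a1a gave 6.18% to 13.9% in neutrophil-like cells and 20.3% to 22.7% in monocyte-like cells. These are shares of the counted UMIs and not of the RNA, since the paralogs share different amounts of sequence.

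**Figure D2:**
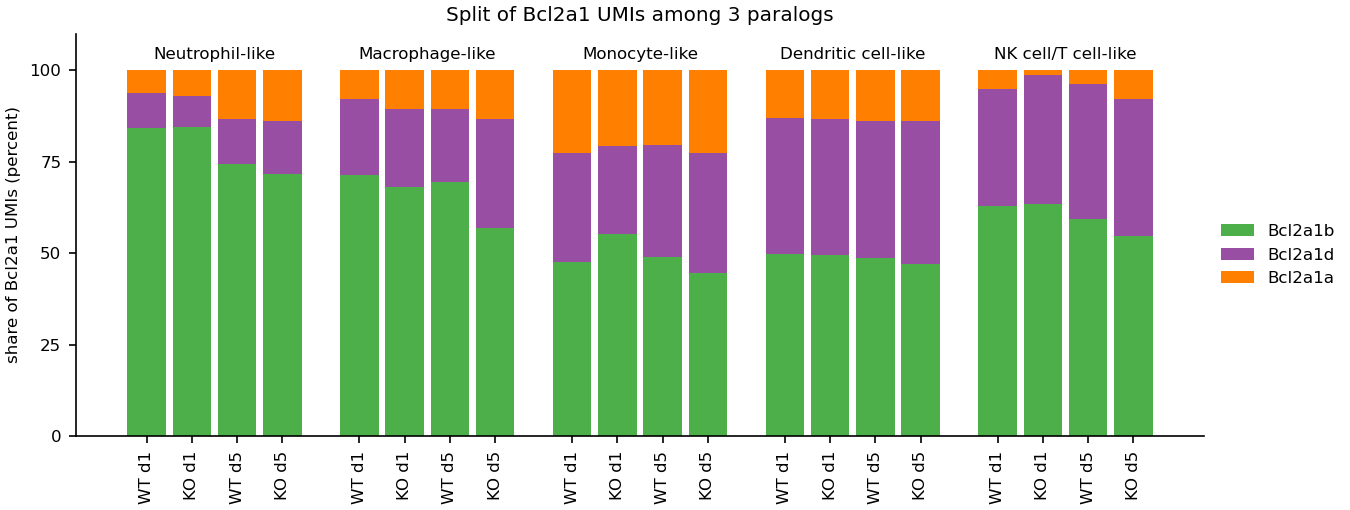
Share of the UMIs of Bcl2a1b, Bcl2a1d and Bcl2a1a in the sum of the 3 paralogs (percent, stacked to 100) for 5 classes in each library (d1 and d5, 1 and 5 dpw). Bcl2a1b takes 84.3% in neutrophil-like cells of WT wounds at 1 dpw and 49.7% in dendritic cell-like cells of the same library.

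The comparison of 5 with 1 dpw asked how survival genes differed between early inflammation and repair. In neutrophil-like cells the largest day differences were those of Pmaip1 and Bcl2a1a. Pmaip1 had 20.8 CPM at 1 dpw and 87.9 CPM at 5 dpw in WT wounds and 21.1 and 73.5 CPM in KO wounds, log2 ratios of 2.08 (1.91 to 2.26) and 1.80 (1.63 to 1.98). Bcl2a1a had 13.5 and 54.1 CPM in WT and 18.0 and 53.4 CPM in KO wounds, log2 ratios of 2.01 (1.79 to 2.23) and 1.57 (1.37 to 1.76). Both libraries at 5 dpw lay above both at 1 dpw for each gene. Past 1.5-fold, with at least 100 UMIs over the pair of libraries, were 8 of the 10 genes in WT (7 higher and 1 lower at 5 dpw) and 6 of 10 in KO (all higher), beside 58.8% and 60.0% of all genes tested. These shares of members were near the background, and the whole scale moved, since the median gene had a log2 ratio of 0.66 in WT and 0.69 in KO. The 20 most abundant genes took 41.0% and 42.6% of neutrophil-like UMIs at 1 dpw and 31.2% and 31.5% at 5 dpw, S100a8 and S100a9 alone 16.9% and 18.6% against 9.26% and 9.39%. Changes in neutrophil-like cells are therefore also given relative to the median gene.

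Relative to the median gene, 3 of the 10 were more than 1.5-fold higher at 5 dpw in each genotype and 2 (WT) or 3 (KO) more than 1.5-fold lower, beside 39.5% and 39.8% of all genes past that fold in either direction. Pmaip1 was higher by 1.42 in WT and 1.12 in KO on the centred log2 scale, Bcl2a1a by 1.35 and 0.88, and Bcl2a1d by 0.62 and 0.67. Bax, at 43.2 and 95.9 CPM in WT and 42.7 and 99.6 CPM in KO wounds, was higher by 0.49 and 0.54 on this scale and by 1.15 and 1.22 as CPM stood. Bcl2l1 and Bcl2l11 were at the low end of all genes. Bcl2l1 had 169 and 113 CPM in WT and 164 and 124 CPM in KO wounds, centred log2 ratios of -1.24 and -1.09, with 4.53% and 6.14% of genes lower still. Bcl2l11 had centred ratios of -1.34 in WT and -0.96 in KO wounds, with 3.59% and 8.22% of genes lower still. Mcl1 changed its direction with the scale, at 0.08 and 0.05 as CPM stood and -0.58 and -0.64 when centred. Bcl2a1b (0.72 and 0.35 as CPM stood, 0.06 and -0.34 centred), the Bcl2a1 sum (0.90 and 0.58, then 0.24 and -0.10) and Bid (0.88 and 0.64, then 0.22 and -0.05) kept their direction in WT and turned in KO. The centred intervals spanned 0 for Bcl2a1b in WT (-0.02 to 0.13) and for Bid in WT (-0.01 to 0.44) and KO (-0.28 to 0.18). Bcl2 was seen in under 2% of neutrophil-like cells and its ratios of 0.71 (0.12 to 1.29) and 0.89 (0.42 to 1.37) rested on 44 to 86 UMIs per library.

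Per cell, neutrophil-like cells held fewer UMIs at 5 dpw, on average 3209 (WT) and 3506 (KO) against 5062 and 4953 at 1 dpw. Mcl1 averaged 20.9 UMIs per cell at 1 dpw and 13.9 at 5 dpw in WT wounds and 20.3 and 14.9 in KO wounds. Bcl2l11 averaged 2.96 and 1.17 UMIs in WT and 2.59 and 1.52 in KO wounds. Pmaip1 was higher at 5 dpw on this scale too, going from 0.105 to 0.282 UMIs per cell in WT and from 0.104 to 0.258 in KO wounds, and Bax from 0.219 to 0.308 and from 0.211 to 0.349. With cells thinned to 1000 UMIs, 2.15% and 7.44% of WT and 2.50% and 5.77% of KO neutrophil-like cells had a Pmaip1 UMI at 1 and 5 dpw. Without thinning the shares were 7.48% and 17.3% in WT and 7.41% and 15.1% in KO wounds. How far RNA per cell and capture each set the drop in UMIs was not tested.

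**Figure D3:**
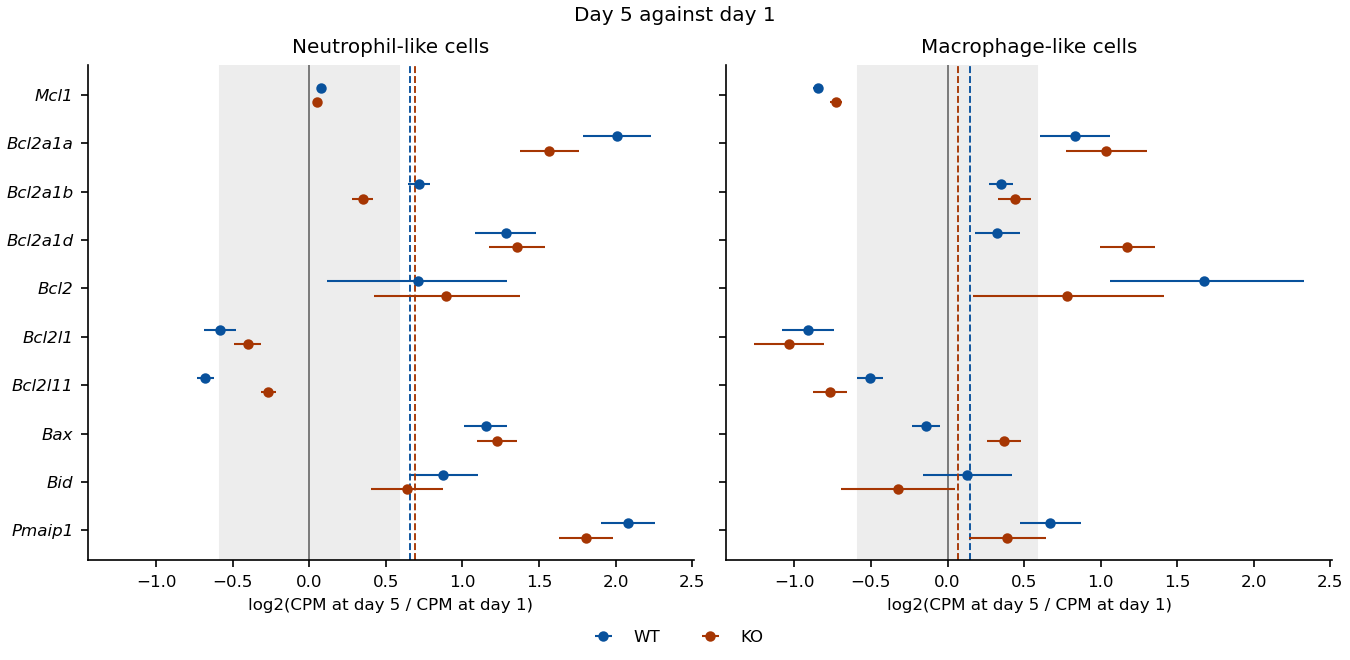
Log2 ratio of CPM at 5 dpw to CPM at 1 dpw for the 10 genes in neutrophil-like (left) and macrophage-like cells (right) of WT and KO wounds, with exact 95% intervals for counting error. The grey band spans less than 1.5-fold and dashed lines give the median of all genes tested, 0.66 and 0.69 in neutrophil-like and 0.15 and 0.07 in macrophage-like cells. Pmaip1 and Bcl2a1a lie far right of the median and Bcl2l1 and Bcl2l11 left of it in neutrophil-like cells.

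The 6 neutrophil-like clusters differed far more in A1, Bax and Noxa than in Mcl1. Cluster 1, with Nlrp12, Prok2 and Lrg1 among its top 10 genes, had 112 CPM of the Bcl2a1 sum over all libraries. Cluster 6, with the cytokine genes Csf3 and Il1a among its top 10, had 596 CPM. The highest to lowest cluster ratio of the sum was 4.26, 4.81, 6.30 and 5.08 in the 4 libraries, with clusters 6 and 1 at the ends each time. For Mcl1 the same ratio was only 1.20, 1.22, 1.19 and 1.17, with 3982 to 4441 CPM over all libraries. Cluster 0, led by Acot1 and Csf1, stood out for the death genes: Bax had 133, 182, 151 and 186 CPM there, against 4.71 to 111 CPM in the other 5 clusters. Pmaip1 was also highest in cluster 0 in every library, with 57.7, 148, 53.8 and 123 CPM. Bcl2 was 8.47 to 29.8 CPM in cluster 6 and 0.543 to 1.95 CPM in cluster 1.

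The change between days was present within clusters, which integration had matched across days. Without integration the largest neutrophil-like cluster held 1316, 822, 1301 and 1083 cells. Others were mostly of a single day, such as those with 116, 1572, 78 and 1960 cells and with 1614, 40, 1373 and 60 cells. Whether the cell state within a matched cluster differed between days was not tested. The median gene of a cluster had a day ratio of 0.08 to 0.64 in WT and 0.19 to 0.61 in KO wounds. As CPM stood, Pmaip1, Bax, Bcl2a1a and Bcl2a1d were higher at 5 dpw in 6 of 6 clusters in both genotypes. Relative to the median gene of the same cluster, an alternative added after seeing the data, this held for Pmaip1, Bcl2a1a and Bcl2a1d, while Bax was higher in 6 of 6 clusters in WT and 5 of 6 in KO wounds, with a lowest value of -0.16. The difference was widest in cluster 1, where Bax had 4.71 and 47.2 CPM in WT and 4.91 and 46.7 CPM in KO wounds, from 26 to 144 UMIs per library. There Pmaip1 had 2.90 and 63.6 CPM in WT and 4.73 and 44.1 CPM in KO wounds, log2 ratios of 4.46 (3.71 to 5.30) and 3.22 (2.61 to 3.89), or 3.82 and 2.61 relative to the median gene of the cluster. Bcl2l11 was lower at 5 dpw in 6 of 6 clusters in both genotypes on either scale, as CPM stood from -1.06 to -0.49 in WT and from -0.54 to -0.15 in KO wounds. The share of cluster 0 among neutrophil-like cells was 26.2% and 31.7% in WT and 25.5% and 33.4% in KO wounds. Macrophage markers also differed by day in these clusters. Spp1 was lower, and the other genes of the list summed higher, at 5 dpw in every cluster of both genotypes. The list's 12 genes summed to 688 to 28118 CPM in neutrophil-like clusters, and without Spp1 to 31.9 to 64.6 CPM at 1 dpw and 78.6 to 346 CPM at 5 dpw, while the macrophage-like class held 16825 to 21273 CPM of the whole list. The sum without Spp1 was highest within each genotype in cluster 1 at 5 dpw, at 346 CPM (WT) and 253 CPM (KO), beside 562 and 435 CPM of Spp1. At 1 dpw Spp1 had 2207 CPM (WT) and 2756 CPM (KO) in that cluster. C1qa was at 0 to 15.1 CPM in every neutrophil-like cluster and library, and the part of macrophage RNA in the changes of Bax and Pmaip1 was not tested.

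**Figure D4:**
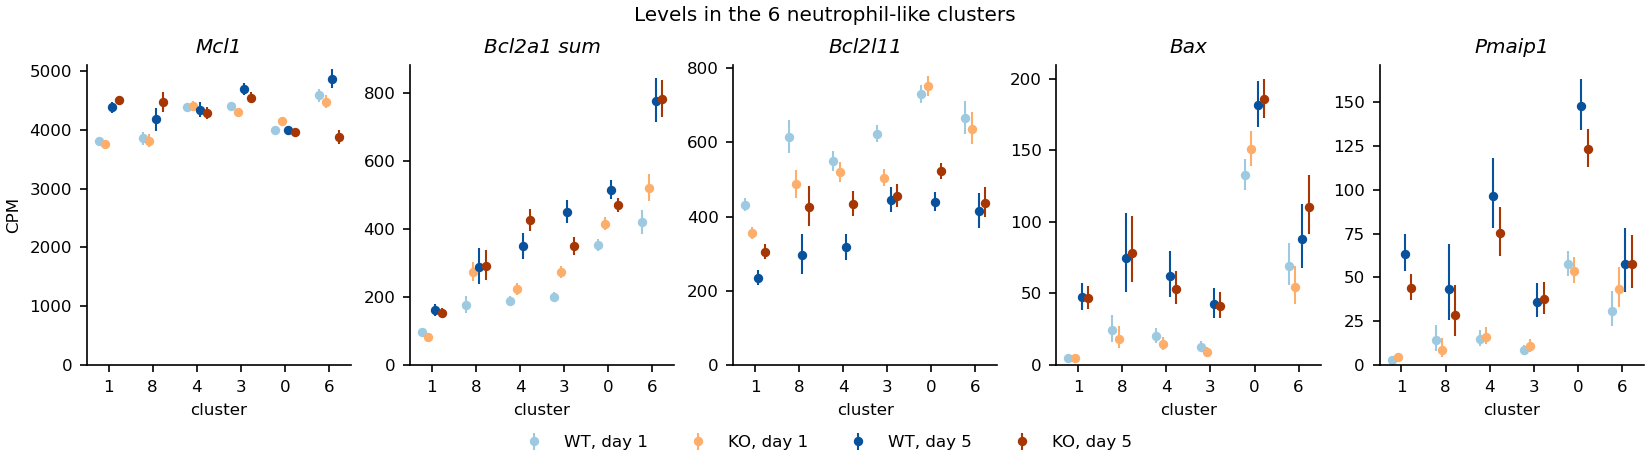
Levels (CPM, axes from 0) of Mcl1, the Bcl2a1 sum, Bcl2l11, Bax and Pmaip1 in the 6 neutrophil-like clusters, numbered as in the text and ordered by the Bcl2a1 sum, for each library with exact 95% intervals for counting error. Mcl1 differs up to 1.22-fold between clusters within a library, whereas Bax and Pmaip1 peak in cluster 0.

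As CPM stood, macrophage-like cells had less Mcl1 and Bcl2l1 at 5 than at 1 dpw. Mcl1 had 2301 and 1278 CPM in WT and 2182 and 1316 CPM in KO wounds, log2 ratios of -0.85 (-0.88 to -0.82) and -0.73 (-0.77 to -0.69). Bcl2l1 had 72.0 and 38.3 CPM in WT and 70.4 and 34.3 CPM in KO wounds, log2 ratios of -0.91 (-1.08 to -0.74) and -1.04 (-1.26 to -0.81). Bcl2l11 was 255 and 180 CPM in WT, a ratio of -0.51 (-0.59 to -0.42), and 249 and 146 CPM in KO wounds, a ratio of -0.77 (-0.88 to -0.65). For each of the 3 genes both libraries at 5 dpw lay below both at 1 dpw as CPM. Per cell, Mcl1 averaged 17.9 and 10.8 UMIs in WT and 15.0 and 15.7 in KO wounds. Bcl2l11 averaged 1.99 and 1.51 in WT and 1.71 and 1.74 in KO wounds, and Bcl2l1 0.56 and 0.32, then 0.48 and 0.41. In KO wounds Mcl1 and Bcl2l11 were thus not lower per cell. These cells held on average 7776 and 8411 UMIs in WT and 6866 and 11899 in KO wounds. The neutrophil genes S100a8, S100a9, Cxcr2 and Retnlg were also lower in these cells at 5 dpw. The part of neutrophil RNA in the differences of Mcl1, Bcl2l1 and Bcl2l11 was not tested. Past 1.5-fold were 5 of 10 genes in WT (3 higher, 2 lower) and 6 of 10 in KO (3 higher, 3 lower), beside 29.5% and 24.6% of all genes. The median gene was at 0.15 in WT and 0.07 in KO, and relative to it 2 were higher and 3 lower in WT and 3 higher and 3 lower in KO wounds. On that scale 26.7% (WT) and 24.1% (KO) of all genes were past 1.5-fold in either direction.

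A1 was higher at 5 dpw in the same cells. Bcl2a1a had 24.5 and 43.6 CPM in WT and 28.8 and 59.1 CPM in KO wounds, ratios of 0.83 (0.60 to 1.06) and 1.04 (0.78 to 1.30). The Bcl2a1 sum had ratios of 0.39 (0.32 to 0.45) in WT and 0.70 (0.61 to 0.78) in KO wounds, which were 0.24 and 0.63 relative to the median gene. Bcl2 had 3.02 and 9.62 CPM in WT and 5.69 and 9.76 CPM in KO wounds, from 27 to 125 UMIs per library. Pmaip1 had 33.2 and 52.9 CPM in WT, a ratio of 0.67 (0.47 to 0.87), and 36.2 and 47.5 CPM in KO wounds, 0.39 (0.14 to 0.64). Bax and Bid stayed within 1.5-fold in both genotypes. Among the 2 macrophage-like clusters, cluster 2 had more Mcl1 than cluster 5 in each library (2536, 1443, 2516 and 1448 CPM against 1915, 1059, 1816 and 1192 CPM). The top 10 genes of cluster 2 included Arg1 and Mmp12, and those of cluster 5 Ms4a7 and C1qb. As CPM stood, Mcl1 was lower at 5 dpw in both clusters of both genotypes. Cluster 2 held 75.7% and 65.2% of macrophage-like cells in WT and 69.4% and 53.4% in KO wounds at 1 and 5 dpw.

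Monocyte- and dendritic cell-like cells showed other patterns over time. The monocyte-like cluster was led by Ace, Prtn3 and Adgre4. At resolution 1.0 another cluster of 301 cells, led by Vcan and Chil3, scored highest on the macrophage list and was left unnamed. Chil3 is on the monocyte marker list. Whether monocytes lay outside the monocyte-like class was not tested, so its levels are those of this cluster only. In monocyte-like cells, of which each library held 126 to 152, Bcl2 had 8.49 and 79.4 CPM in WT and 13.9 and 50.5 CPM in KO wounds, ratios of 3.23 (2.50 to 4.02) and 1.86 (1.18 to 2.58). These rested on 19 and 92 UMIs in WT and on 25 and 69 UMIs in KO wounds. The KO pair was under the minimum of 100 UMIs. The Bcl2a1 sum had 53.6 and 229.7 CPM in WT and 59.6 and 184 CPM in KO wounds, ratios of 2.10 (1.78 to 2.42) and 1.63 (1.29 to 1.97). Mcl1 there was nearly level, at -0.13 (-0.22 to -0.04) and -0.21 (-0.30 to -0.12). In dendritic cell-like cells the Bcl2a1 sum was level as well, with ratios of 0.02 (-0.03 to 0.08) and -0.10 (-0.16 to -0.03). Mcl1 was lower at 5 dpw, by -0.42 (-0.51 to -0.34) in WT and -0.48 (-0.57 to -0.39) in KO wounds, and Bcl2l11 by -0.94 (-1.23 to -0.65) and -0.50 (-0.84 to -0.15). Bcl2l11 was thus lower at 5 than at 1 dpw in neutrophil-, macrophage-, monocyte- and dendritic cell-like cells of both genotypes as CPM stood.

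The NK cell/T cell-like cluster held cells with different survival genes. Cells with a UMI of Cd3d, Cd3e or Cd3g and none of Ncr1 or Klrb1c (T, 300 cells) had 115 CPM (104 to 127) of Bcl2, and cells with the reverse (NK, 170 cells) had 420.4 CPM (387 to 456), pooled over libraries. Bcl2l11 was also lower in T, at 55.6 CPM (47.8 to 64.3), than in NK, at 172.5 CPM (152 to 196), but not in every library: KO at 1 dpw had 347 CPM (258 to 456) in 19 T cells and 168 CPM (96.1 to 273) in 13 NK cells. The Bcl2a1 sum had the reverse order, with 369.8 CPM (349 to 391) in T and 168 CPM (147 to 190.3) in NK. Mcl1 had no common order, with 1228, 342, 1204 and 348 CPM in T and 575, 298, 547 and 441 CPM in NK. At 5 dpw alone, where 257 T and 149 NK cells lay, Bcl2 was 100.5 CPM (89.4 to 113) against 381 CPM (348 to 416).

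The comparison of genotypes asked whether loss of Angptl4 altered these genes in the same cell class. Neutrophil-like cells differed little: 0 of the 10 genes were past 1.5-fold at either time, beside 4.76% of all genes at 1 dpw and 5.75% at 5 dpw. Mcl1 had a KO to WT log2 ratio of -0.01 (-0.02 to 0.01) at 1 dpw and -0.03 (-0.05 to -0.01) at 5 dpw. Bcl2l11 was lower in KO at 1 dpw, -0.16 (-0.20 to -0.12), and higher at 5 dpw, 0.25 (0.18 to 0.31). The latter held in 6 of 6 clusters of the same libraries, with intervals above 0 in 4. Relative to the median gene these ratios were -0.07 and 0.32. At 1 dpw Bcl2a1a was higher in KO by 0.42 (0.18 to 0.66) and Bcl2a1b by 0.24 (0.17 to 0.31), and at 5 dpw they were at -0.02 and -0.13. Bid, at 33.6 CPM in WT and 25.5 CPM in KO wounds at 5 dpw, had a ratio of -0.40 (-0.63 to -0.16), and Pmaip1, at 87.9 and 73.5 CPM, one of -0.26 (-0.40 to -0.12). The median gene was at -0.09 and -0.07 in these comparisons.

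In macrophage-like cells at 1 dpw 0 of the 9 genes with enough UMIs were past 1.5-fold, beside 3.91% of all genes, and Bcl2, the member left out, had 27 UMIs in WT and 33 in KO wounds. At 5 dpw 1 of 10 was, beside 5.23% of all genes. This was Bcl2a1d, with 66.2 CPM in WT and 58.3 CPM in KO wounds at 1 dpw and 83.0 and 132 CPM at 5 dpw, a ratio at 5 dpw of 0.67 (0.54 to 0.79). The KO library at 5 dpw lay above the other 3. With clusters built without integration of the libraries it was no longer past 1.5-fold, at a log2 ratio of 0.54. In cluster 2 the ratio was 0.86 (0.70 to 1.02) and in cluster 5 it was 0.48 (0.28 to 0.69). Its paralog Bcl2a1b went the other way, at 287 CPM in WT and 251 CPM in KO wounds, -0.19 (-0.27 to -0.11), while Bcl2a1a, at 43.6 and 59.1 CPM, was higher in KO by 0.44 (0.26 to 0.62), and the sum differed by 0.10 (0.03 to 0.16). The clusters did not share these differences. In clusters 2 and 5 the ratios were 0.05 and -0.46 for Bcl2a1b, 0.79 and -0.04 for Bcl2a1a and 0.35 and -0.19 for the sum. The intervals of the sum lay on opposite sides of 0. The part of the cluster mix in these values was not tested. Bax differed as much as Bcl2a1a at 5 dpw, with 172 CPM in WT and 234 CPM in KO wounds, a ratio of 0.44 (0.35 to 0.53), and was higher in KO in cluster 2 (0.52) and cluster 5 (0.34). These macrophage-like cells had a median of 8343 UMIs in WT and 11524.5 in KO wounds at 5 dpw. With cells thinned to 1000 UMIs the share with a Bcl2a1d UMI was 5.53% in WT and 9.26% in KO wounds (26.6% and 44.0% without thinning), and that with a Bax UMI 12.5% and 19.8% (59.5% and 80.3%).

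In dendritic cell-like cells Pmaip1 had 183 CPM in WT and 151 CPM in KO wounds at 1 dpw, a ratio of -0.28 (-0.55 to -0.01), and 169.6 and 252 CPM at 5 dpw, a ratio of 0.57 (0.42 to 0.72). The Bcl2a1 sum in the same cells differed by -0.04 (-0.12 to 0.03) and -0.16 (-0.21 to -0.11). The 1 dpw libraries held only 113 and 90 of these cells. At 5 dpw the clusters at resolution 1.0 led by Siglech and by Fscn1 held 170 and 137 cells in WT and 139 and 67 in KO wounds. The part of this mix in the Pmaip1 difference was not tested. Relative to the median gene Pmaip1 was at 0.56 at 5 dpw, less than 1.5-fold. Of 9 members tested there, 1 was past that fold, beside 6.67% of all genes. This was Bcl2, at -0.63 (-1.22 to -0.07), with 84 UMIs in WT and 39 in KO wounds. In monocyte-like cells at 5 dpw 1 of 9 was past it, beside 5.72% of all genes. This was also Bcl2, at -0.66 (-1.13 to -0.19), with 92 and 69 UMIs.

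**Figure D5:**
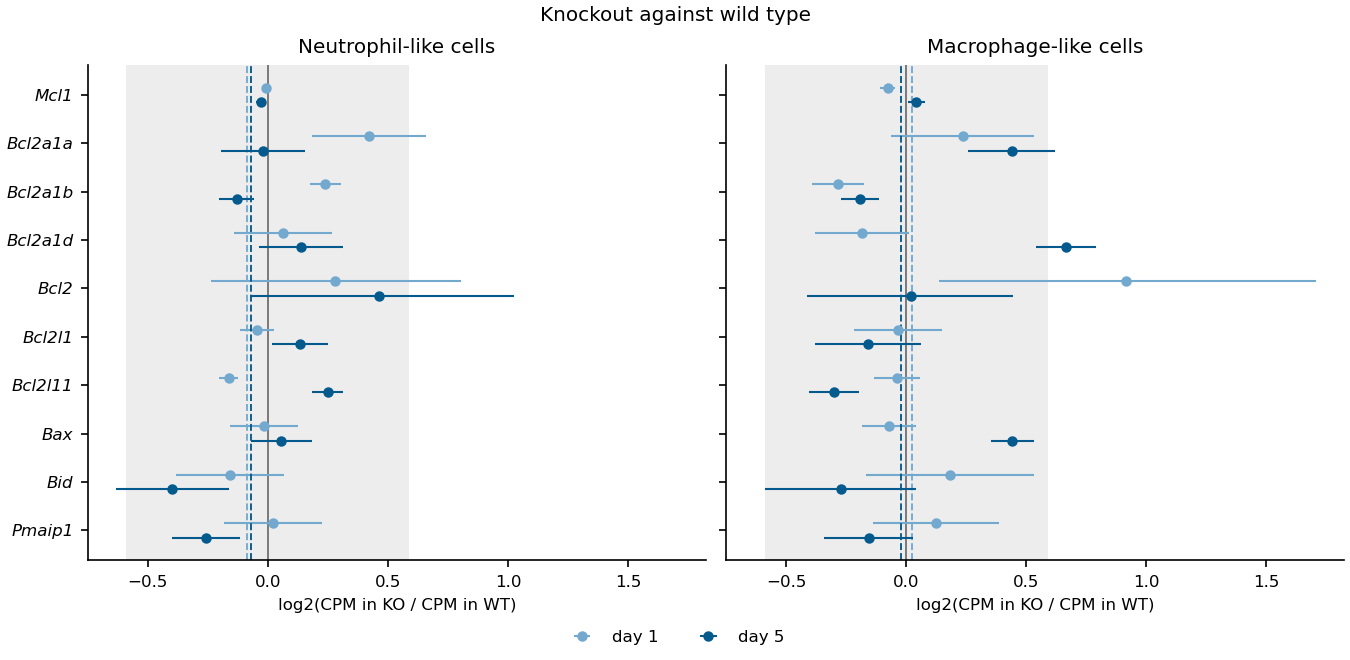
Log2 ratio of CPM in KO to CPM in WT wounds for the 10 genes in neutrophil-like (left) and macrophage-like cells (right) at 1 and 5 dpw, with exact 95% intervals for counting error, a grey band for less than 1.5-fold and dashed lines at the median of all genes. Outside the band lie Bcl2a1d in macrophage-like cells at 5 dpw (0.67) and Bcl2 in macrophage-like cells at 1 dpw, which had only 27 and 33 UMIs in the pair of libraries.

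Other genes of the pathway were read from 3 lists. Of 16 further Bcl2 family genes, 6 had enough UMIs in neutrophil-like cells and 2 were past 1.5-fold higher at 5 dpw in each genotype, with 0 lower, beside 54.3% (WT) and 55.9% (KO) of all genes higher. These were Bbc3, the gene of the BH3-only protein Puma (1.14 in WT and 1.45 in KO wounds), and Bak1, the partner of Bax (0.59 in each genotype). The medians of the tested genes, 0.33 and 0.39, lay below that of all genes, 0.66 and 0.69. Bak1 lay below it too. In macrophage-like cells 9 (WT) and 8 (KO) were tested and 1 was higher and 2 lower at 5 dpw: Bmf, another BH3-only gene, at 1.20 and 0.68, and the mitophagy receptors Bnip3 (-1.01 and -1.19) and Bnip3l (-0.65 and -0.63). Beside these, 19.8% (WT) and 14.4% (KO) of all genes were higher and 9.69% and 10.2% lower. Bmf was also lower in KO at 5 dpw, with 19.0 CPM in WT and 9.11 CPM in KO wounds and a ratio of -1.06 (-1.47 to -0.67), and 0 of the list's genes were past 1.5-fold between genotypes at 1 dpw or in neutrophil-like cells.

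Of 17 genes acting downstream or on caspases, 12 were tested in neutrophil-like cells and 5 (WT) and 6 (KO) were higher at 5 dpw, with 0 lower and medians of 0.51 and 0.59, beside 54.3% and 55.9% of all genes higher. The 4 with the highest ratio in WT were Aifm1 (1.07), the initiator caspase gene Casp9 (1.00), Diablo (0.79) and the cytochrome c gene Cycs (0.69), all near or above the median gene. In macrophage-like cells 16 (WT) and 15 (KO) were tested. Cflar, which encodes the caspase-8 inhibitor c-FLIP, had 272 and 115 CPM in WT and 260.4 and 141 CPM in KO wounds, ratios of -1.24 (-1.34 to -1.15) and -0.88 (-0.999 to -0.771). With it 1 gene was lower and 2 higher in WT, and 4 lower and 1 higher in KO wounds, where Apaf1 (-0.71), Birc3 (-0.71) and Xiap (-0.66) were the others that were lower. Of all genes 9.69% were lower and 19.8% higher in WT, and 10.2% lower and 14.4% higher in KO wounds. Between genotypes, 1 of 12 in neutrophil-like cells was past 1.5-fold lower in KO at 1 dpw, beside 3.79% of all genes. At 5 dpw 1 of 13 was higher, beside 1.87%. In macrophage-like cells 1 of 15 was lower at 1 dpw, beside 1.98%, and 1 of 16 higher at 5 dpw, beside 1.89%. The largest of these differences in neutrophil-like cells was that of Casp8 at 5 dpw, with 42.7 CPM in WT and 72.7 CPM in KO wounds, a ratio of 0.77 (0.59 to 0.95).

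Of 10 receptors that carry survival signals, 6 were tested in neutrophil-like cells. Csf3r, the receptor of the neutrophil growth factor G-CSF, had 608 and 1221.5 CPM in WT and 634 and 1199.7 CPM in KO wounds. Its ratios were 1.01 and 0.92, beside 0.66 and 0.69 for the median gene. It was 1 of 3 receptors past 1.5-fold higher in each genotype, with Csf1r and Csf2rb, beside 54.3% and 55.9% of all genes, and Il2rg was lower in WT (-0.65). In macrophage-like cells 7 were tested and 0 were higher, beside 19.8% (WT) and 14.4% (KO) of all genes higher and 9.69% and 10.2% lower. The interleukin-7 receptor gene Il7r had 408 and 89.0 CPM in WT and 393 and 129 CPM in KO wounds, ratios of -2.20 (-2.30 to -2.10) and -1.60 (-1.712 to -1.495), and Csf2rb was lower in WT (-0.81). No receptor was past 1.5-fold between genotypes in either class.

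The genes whose levels ran most like those of the members were named over 18 sums, 1 for each class and library with at least 50 cells, among 8723 genes. These sums share libraries, and the number of points is small against the number of genes, so the values are descriptions. Mcl1 ran most like Trib1 (Pearson r of 0.99 on log2 of CPM plus 10), Litaf (0.98), Rhbdf2 (0.98), Plek (0.98) and Ptp4a1 (0.97). Bcl2l11 ran most like Wbp1l (0.98), Carhsp1 (0.98), Rhov (0.98), Slc27a4 (0.97) and Ets2 (0.97). The Bcl2a1 sum ran most like Plxnc1 (0.93), Arhgap5 (0.92), Swap70 (0.91), Rab21 (0.90) and Fnbp1l (0.90). For Pmaip1 the closest were Map3k14 (0.94) and Bcl2a1a itself (0.93), followed by Iscu (0.92), Gucd1 (0.92) and Ttyh3 (0.91). Bcl2 ran most like Abca2 (0.95), Ncapd3 (0.93) and the histone genes Hist1h1e, Hist1h3e and Hist1h4d (each 0.93).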

How the data were processed

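Single-cell RNA sequencing libraries of sorted wound leukocytes were used, 1 per genotype and day. The authors deposited whole-number UMI counts per gene and barcode as filtered matrices. The submitters' processing notes name Cell Ranger 3.1.0, Seurat 3.0 and mm10, and whether doublets had been removed was not given in the sources used here. Barcodes with at least 200 genes and at most 10% mitochondrial counts were kept. Libraries were integrated in Seurat 5.3.0 (R 4.3.3) on 2000 variable genes and clustered at resolution 0.5 on 30 dimensions, and clusters were named from marker lists. Simulated doublets marked 789 cells, which were kept in the main values and removed in an alternative. Counts were summed per class and library. Exact Poisson intervals for levels, Clopper-Pearson intervals for shares and exact conditional binomial intervals for ratios were computed in SciPy 1.17.1, all at 95%. A gene was tested for size in a pair of libraries with at least 100 UMIs and called past 1.5-fold. The ratios and their intervals were tried on simulated Poisson counts. These held no variation between cells or mice, so the trial covers counting error only. Gene positions came from GENCODE M21. Named were all 10 members, up to 4 genes per list with the largest ratio and the 5 genes most alike. The members and lists were chosen with earlier results of these data known.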

Additional observations from a re-analysis of the deposited data

Results flagged for a closer look

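With 1 library per condition, none of the differences between contrasts given here was tested. They are listed because the 2 log2 ratios compared had opposite signs and intervals for counting error on opposite sides of 0. For Mcl1 the day ratio was 0.0755 in neutrophil-like and -0.85 in macrophage-like cells of WT wounds, and 0.0515 and -0.73 in KO wounds. Its KO to WT ratio in macrophage-like cells was -0.0767 at 1 dpw and 0.0418 at 5 dpw, and -0.0299 in neutrophil-like cells at 5 dpw. The macrophage-like ratio at 5 dpw changed sign with cells thinned to 1000 UMIs. Relative to the median gene the neutrophil-like day ratios of Mcl1 were -0.58 (WT) and -0.64 (KO), and its ratio between genotypes at 5 dpw was 0.04.

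For Bcl2a1b the KO to WT ratio was 0.24 at 1 dpw and -0.13 at 5 dpw in neutrophil-like cells and -0.28 at 1 dpw in macrophage-like cells. Relative to the median gene its neutrophil-like value at 5 dpw was -0.06 (-0.13 to 0.02), an interval that spans 0. The Bcl2a1 sum had ratios of 0.24 and -0.0797 in neutrophil-like cells and of -0.21 and 0.10 in macrophage-like cells at 1 and 5 dpw. Relative to the median gene the neutrophil-like sum at 5 dpw was -0.01 (-0.07 to 0.05), an interval that also spans 0. For Bcl2l11 neutrophil-like cells gave -0.16 at 1 dpw and 0.25 at 5 dpw, against -0.30 in macrophage-like cells at 5 dpw.

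For Bax the day ratio was -0.14 in WT and 0.37 in KO macrophage-like cells, and 1.15 in WT neutrophil-like cells. For Pmaip1 in dendritic cell-like cells the values for KO over WT were -0.28 (1 dpw) and 0.57 (5 dpw).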

How the results depend on the processing

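No paired analysis was possible because each group had 1 library and the labels gave no shared replicate numbers. The 87 ratios of the members and the Bcl2a1 sum in neutrophil- and macrophage-like cells were each recomputed under 10 alternatives. Of these 870 values, 752 stayed within the counting interval of the reported ratio and 117 moved outside it. Past 1.5-fold, 1 reversed, that of Bid in neutrophil-like cells of KO wounds by day, at -0.0508 (-0.28 to 0.18) relative to the median gene. Including smaller ratios, 11 of 87 changed sign on that scale, among them Mcl1 by day (-0.58 in WT and -0.64 in KO wounds) and, in KO wounds by day, Bcl2a1b (-0.34) and the Bcl2a1 sum (-0.10), all in neutrophil-like cells, and 11 of 87 changed sign with thinning. In neutrophil-like cells of WT wounds by day, 5 members were past 1.5-fold relative to the median gene, and 4 were past 2-fold. In macrophage-like cells by day, 3 members in WT wounds were past 1.5-fold with cells thinned to 1000 UMIs, 3 with per-cell means and 1 past 2-fold, and in KO wounds 3 with thinning and 3 past 2-fold. Between genotypes in macrophage-like cells, 1 was past 1.5-fold at 1 dpw with a minimum of 20 UMIs, and at 5 dpw 0 without integration, 2 with thinning, 2 with per-cell means and 0 past 2-fold. The Bcl2a1 sum differed 4.76-fold between neutrophil-like clusters with per-cell means. Leaving out the cluster led by Csf3 and Il1a, an alternative chosen after seeing the data, moved 2 of 87 ratios. The cause of these shifts was not tested. With 1 library per condition, variation between mice could not be measured, Bcl2 in myeloid cells rested on few UMIs, and fewer cells of a kind within a class and less RNA per cell cannot be told apart in summed counts.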
